A study of Mus musculus with 4 samples.

Results

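Complement is a set of secreted and membrane proteins that marks microbes and cell debris for removal, and its transcripts were followed through the cells of the mouse Achilles tendon. The 7 genes taken here are C1qa, C1qb, C1qc, C1ra, C4b, C3 and Serping1. They were chosen by name, as 7 of the 15746 genes of the count table, and all 7 carried transcripts. The 4 libraries came from Achilles tendons of male C57Bl/6 mice aged 6 weeks, with no other treatment or genotype in the labels, and were made with version 3 of the 10x Genomics 3-prime kit. They form 1 group, so populations within a library are compared here and not conditions. Nothing in the labels tells if 1 mouse or several went into a library, and p-values therefore measure only the spread between these libraries.

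In the classical pathway, C1q recognises antibody or other ligands on a surface, and the proteases C1r and C1s bound to it then cut C4 and C2. The resulting enzyme cuts C3, whose fragments coat the target and signal to phagocytes, and the alternative pathway, with factors B and D, amplifies that step. The C1 inhibitor encoded by Serping1 blocks C1r and C1s. The liver supplies most of the complement in blood, while C1q is known as a product of macrophages and related myeloid cells, and fibroblasts are known to make several of the later components.

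C1qa, C1qc and C1qb encode the A, C and B chains of C1q. They lie side by side on the minus strand of chromosome 4 (build GRCm38, positions 136895917 to 136898803, 136889804 to 136893065 and 136880129 to 136886187), within 18675 bases. C1ra lies on chromosome 6 (124512405 to 124523443), C4b and C3 on chromosome 17 (34728380 to 34743882 and 57203970 to 57228136) and Serping1 on chromosome 2 (84765387 to 84775444). RefSeq's table of promoters (GRCm38.p6) held entries for 4 of the 7 genes, C1qb, C1qc, C3 and C1ra. The stretches upstream of the start of 3 of them are shown because they hold a motif match and belong to genes found in immune cells (C1qb, C1qc) and in fibroblasts (C3). They are written 5-prime to 3-prime on the minus strand, with a motif match in capitals. For C1qc only the 99 bases of the window that lie outside the gene as positioned above are printed.
C1qb (chr4:136886201-136886450): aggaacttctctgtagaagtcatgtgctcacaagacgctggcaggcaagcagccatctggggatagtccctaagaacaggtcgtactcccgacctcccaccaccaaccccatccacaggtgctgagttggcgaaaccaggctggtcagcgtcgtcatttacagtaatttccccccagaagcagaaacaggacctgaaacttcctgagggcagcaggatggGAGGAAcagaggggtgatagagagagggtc
C1qc (chr4:136893066-136893164): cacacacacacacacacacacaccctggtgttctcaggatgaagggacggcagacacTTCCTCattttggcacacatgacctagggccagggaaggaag
C3 (chr17:57228137-57228386): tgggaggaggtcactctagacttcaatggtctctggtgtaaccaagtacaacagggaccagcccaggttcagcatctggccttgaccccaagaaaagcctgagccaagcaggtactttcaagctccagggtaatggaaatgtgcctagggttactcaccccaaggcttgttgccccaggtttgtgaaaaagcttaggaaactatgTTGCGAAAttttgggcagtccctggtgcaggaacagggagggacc
A search was made for 3 motifs on both strands, in the 250 bases before the start that RefSeq gives. For C1qc and C1ra that start lies inside the gene as positioned above, so most of the window searched does too. GAGGAA, the core of sites of the myeloid factor PU.1, was found in C1qb at 30 bases and, on the other strand, in C1qc at 193 bases before RefSeq's start, and it occurs in 23.3% of 32851 promoters of the table. TTGCNNAA, a form bound by C/EBP factors, was found in C3 at 45 bases before the start and occurs in 9.56% of promoters. TTCNNNGAA, the form bound by STAT factors, was found in 0 of the 4 windows and occurs in 7.02%. A match is a description of these letters and no evidence of binding.

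The table held 1191 cells in 13 populations named by the authors, and 0 cell barcodes were shared between libraries. Libraries 1, 2, 3 and 4 held 580, 246, 256 and 109 cells with 1375111 to 5603366 transcripts each, counted as unique molecular identifiers (UMIs, 1 per captured molecule). Levels are given as CPM, the UMIs of a gene per 1000000 UMIs of a population in a library, for populations with 5 or more cells there. The cells that matter most here were few in some libraries. Immune cells numbered 70, 10, 9 and 3 in libraries 1 to 4, tendon fibroblasts 2 numbered 67, 2, 78 and 9, and bursal fibroblasts 30, 0, 5 and 5. Of tendon fibroblasts 3, 45 of 51 cells were from library 1. The 7 genes together took 0.187%, 0.0213%, 0.147% and 0.0721% of all UMIs of the libraries, lowest in library 2, which held 14 tendon fibroblasts against 32 to 172 in the others.

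Some zeros are not counts of 0 molecules with certainty. C1qb and C1qc were listed at 0 in all cells of library 4, and C3 in all cells of library 2. In library 4, 7 genes were found in exactly 1 cell, 245 in 2 cells and 698 in 3 cells, and C1qa there was found in 3 cells. The UMI total that the authors recorded for each of the 3 immune cells of library 4 exceeded the sum of the table by 515, 246 and 650 UMIs, against a median of 25 over all cells of that library. Whether the authors' processing removed these genes is not stated in the sources used here. No level of C1qb or C1qc in library 4, or of C3 in library 2, is read as absence.

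The names of the populations were checked against markers. All 9 macrophage markers were highest in immune cells, where they summed to 6145 to 16179.7 CPM in libraries 1 to 3, against 125 to 183 CPM in tendon fibroblasts 1 and 129 to 299.9 CPM in tendon fibroblasts 2. All 7 fibroblast markers were highest in one of the tendon fibroblast populations, and 0 of 7 in bursal fibroblasts. They summed to 5818 to 18084 CPM in bursal fibroblasts. In tendon fibroblasts 1 they summed to 104265 to 141948 CPM, and in tendon fibroblasts 2 to 55992 to 141290.1 CPM. Immune cells were not all of 1 kind: 78 of 92 carried 2 or more of the macrophage markers Cd68, Csf1r, Adgre1, Mrc1 and Lyz2, 8 carried B cell markers and 6 neither. In library 2, only 3 of 10 immune cells were macrophage-marked and 5 carried B cell markers.

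The chains of C1q were found almost wholly in immune cells. C1qa stood at 2244, 1507 and 2655 CPM in the immune cells of libraries 1, 2 and 3. C1qb stood at 2403, 1183 and 2589 CPM, and C1qc at 2199, 1693 and 2457 CPM. Every chain was lowest in library 2, the library with the smallest share of macrophage-marked immune cells, and no other population overlapped with immune cells. In library 4, C1qa was found in 2 of 3 immune cells, with 81 UMIs. The next highest level of C1qa was 20.6 CPM, from 6 UMIs in the red blood cells of library 1, and C1qb and C1qc reached at most 5.28 CPM outside immune cells.

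Of 4577 C1q UMIs in all, 99.4% were in immune cells. By chain, immune cells held 99.5% ± 0.626 of C1qa UMIs (SD, n = 4 libraries), 98.5% ± 2.01 of C1qb UMIs (n = 3) and 99.0% ± 0.760 of C1qc UMIs (n = 3). The 29 UMIs elsewhere lay in 24 of 1099 cells, with at most 4 in a cell. Tendon fibroblasts held 2 C1qa, 4 C1qb and 3 C1qc UMIs in 380 cells. To make depth equal, cells were thinned to 2400 UMIs, and 114 of the 1191 cells, which were shallower, were left out of these shares, among them 5 of 92 immune cells, 39 of 145 red blood cells and 13 of 32 nerve cells 3. After thinning, 79.3% of immune cells had a C1qa UMI (69 of 87, exact Clopper-Pearson 95% interval 69.3 to 87.3), against 0 of 161 tendon fibroblasts 1, 0 of 176 endothelial cells 1 and 0 of 106 red blood cells. A floor of 3 counts puts the limit on the share of cells with a UMI at 1.86%, 1.70% and 2.83% there, and the exact intervals reach 2.27%, 2.07% and 3.42%. The median UMIs per cell before thinning were 7108.5 in immune cells, 8824 in tendon fibroblasts 1 and 4132 in red blood cells.

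Within the immune cells, C1q followed the macrophage markers. Macrophage-marked cells held 4547 of the 4548 immune C1q UMIs, at 7250.2, 9362 and 7700.2 CPM for the 3 chains summed in libraries 1, 2 and 3, so that library 2 was highest among these cells. All 3 chains were found together in 68 immune cells, each of them macrophage-marked, while 20 immune cells had none. Macrophage-marked cells carried a median of 54.5 C1q UMIs and at most 194, and the 19 richest immune cells held at least as many C1q UMIs as all the others together. Since a molecule counts once whatever its length, the shares of the chains can be set side by side: C1qa, C1qb and C1qc made up 32.8%, 35.1% and 32.1% of C1q UMIs in library 1, 34.4%, 27.0% and 38.6% in library 2, and 34.5%, 33.6% and 31.9% in library 3. The chains thus stood close to equal in libraries 1 and 3, and library 2 rested on 189 UMIs.

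The C1q genes are among those that set immune cells apart in the authors' annotation, so their difference from fibroblasts is a description. C1qa was 3914-fold higher in immune cells than in tendon fibroblasts 1 to 3 summed, with an exact interval of 1082 to 32352 from 2 UMIs on the fibroblast side, and C1qc 2555-fold (872 to 12403, 3 UMIs). The fitted log2 difference of C1qb was 10.44 with a standard error of 0.62. Each chain was higher in 3 of 3 libraries with no overlap.

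**Figure D1:**
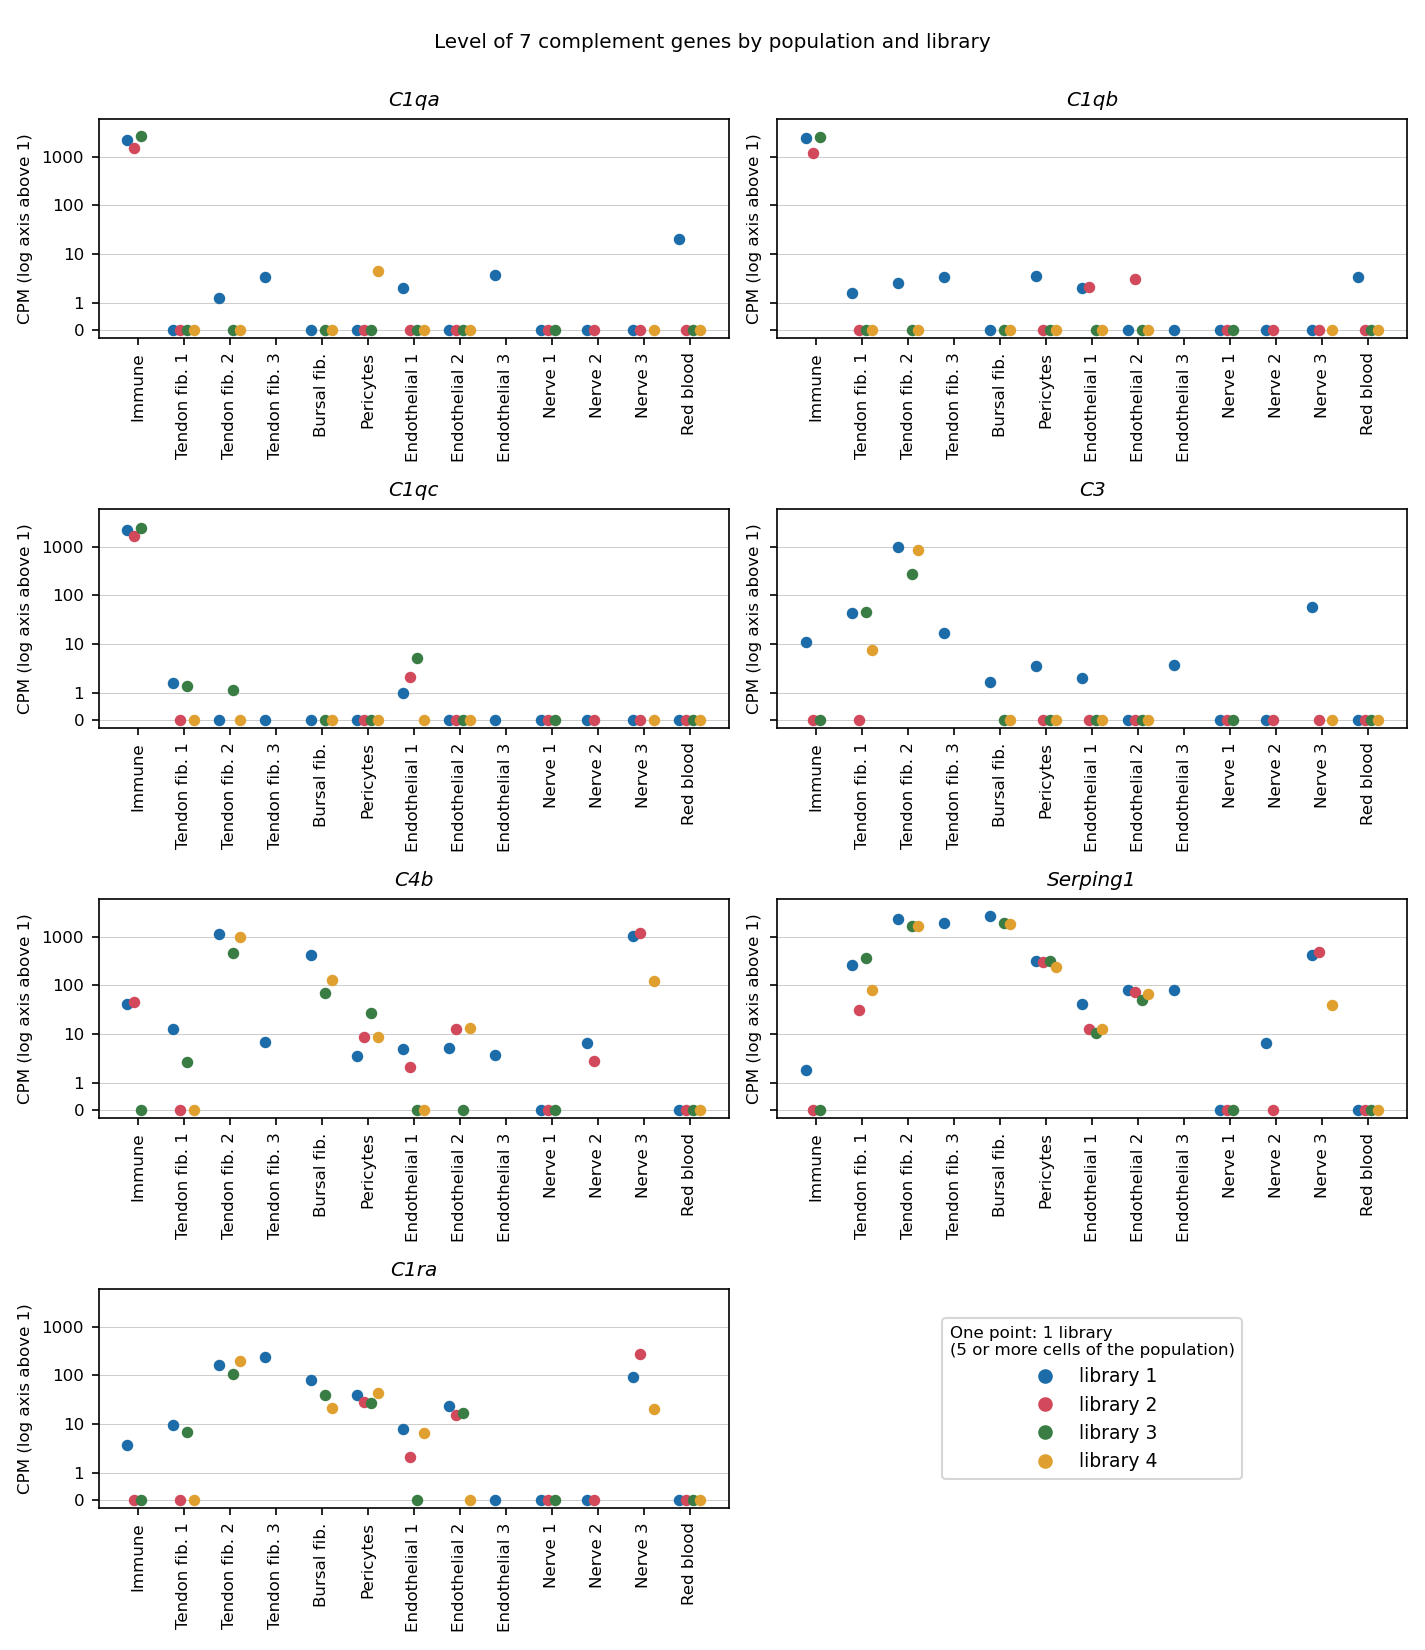
Level of each of the 7 genes in CPM (vertical axis, logarithmic above 1) in 13 populations (horizontal axis), with 1 point for each library that held 5 or more cells of the population. C1qa, C1qb and C1qc sit at 1183 CPM or more in immune cells of libraries 1 to 3 and at or below 20.6 CPM elsewhere, while C3, C4b, Serping1 and C1ra are high in fibroblast populations; points of C1qb and C1qc in library 4 and of C3 in library 2 are genes listed at 0 in the whole library.

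The protease C1r, which sits on C1q and starts the cascade, had the opposite distribution. C1ra stood at 163, 107 and 201 CPM in tendon fibroblasts 2 of libraries 1, 3 and 4, and at 239.6 CPM in the 45 tendon fibroblasts 3 of library 1. Bursal fibroblasts had 79.5, 39.9 and 21.4 CPM in libraries 1, 3 and 4, and pericytes 39.9, 29.2, 26.9 and 44.2 CPM in libraries 1 to 4. Tendon fibroblasts 1, the other large fibroblast population, had 9.55, 0, 6.74 and 0 CPM, below every value of tendon fibroblasts 2. Immune cells had 2 UMIs in all.

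The highest levels of C1ra were thus in tendon fibroblasts 3 and 2, with nerve cells 3 next when libraries were pooled (211, 137 and 115 CPM). The values of tendon fibroblasts 2, nerve cells 3 and bursal fibroblasts overlapped with their neighbour in this order. Nerve cells 3 had 94.5, 275 and 20.2 CPM in libraries 1, 2 and 4, from 16 UMIs. C1ra shares 17.2% of 60-base windows in the last 500 bases of its transcript with its copy C1rb, so its count is uncertain where the authors' counting could split reads between them.

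C1s1, the partner protease and not one of the 7 genes, was highest in tendon fibroblasts 3 and pericytes. Pericytes had 343, 467, 524 and 371 CPM in libraries 1 to 4, tendon fibroblasts 3 had 523 CPM in library 1, and tendon fibroblasts 2 had 213, 88.3 and 226 CPM in libraries 1, 3 and 4. Tendon fibroblasts 1 had 0, 0, 2.70 and 3.78 CPM, and immune cells had 0 UMIs. C1s1 was higher in pericytes than in tendon fibroblasts together in 4 of 4 libraries, with a log2 difference of 1.70 ± 0.33 (SE; adjusted p = 0.00176, edgeR quasi-likelihood test). C1s1 UMIs were found in 103 of 107 pericytes and C1ra UMIs in 32 of 107. C1q and a C1r or C1s transcript rarely met in a cell: 96 cells had a C1q UMI, 345 had a C1ra or C1s1 UMI, and 14 had both.

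C4, which C1s cuts, was found in fibroblasts, in nerve cells and at a lower level in macrophages. C4b stood at 1132, 467 and 983 CPM in tendon fibroblasts 2 of libraries 1, 3 and 4, and at 1039.7, 1183 and 121 CPM in nerve cells 3 of libraries 1, 2 and 4. Bursal fibroblasts had 431, 69.7 and 128 CPM in libraries 1, 3 and 4. The range of nerve cells 3 overlapped with both fibroblast populations, while tendon fibroblasts 2 stood above bursal fibroblasts in every library.

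Tendon fibroblasts 1 had 12.7, 0, 2.70 and 0 CPM of C4b, from 10 UMIs in 173 cells, and tendon fibroblasts 3 had 2 UMIs in 51 cells. Immune cells had 40.8, 46.4 and 0 CPM in libraries 1, 2 and 3. Their 26 UMIs lay in 15 cells, all of them macrophage-marked, while the 14 other immune cells had 0. After thinning, 11.5% of immune cells had a C4b UMI (interval 5.65 to 20.1), against 1 of 176 endothelial cells 1 (0.568%, 0.0144 to 3.12) and 0 of 106 red blood cells. Fibroblast markers summed to 139 to 502 CPM in immune cells against 55992 to 141290.1 CPM in tendon fibroblasts 2; their part in the C4b value of immune cells was not tested. C4b shares 32.4% of the 60-base windows of its last 500 bases with its copy C4a and is uncertain for the same reason as C1ra.

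In nerve cells 3, a population of 32 cells with a median of 2591 UMIs, C4b was found in 26 cells. Of the 19 of them deep enough for thinning, 18 had a C4b UMI (94.7%, interval 74.0 to 99.9), against 74 of 148 tendon fibroblasts 2 (41.7% to 58.3%). Nerve cells 1 had 0 C4b UMIs in 49 cells and nerve cells 2 had 2 in 46. Fibroblast markers summed to 2169 to 2581 CPM in nerve cells 1 and to 1538 to 2403 CPM in nerve cells 2. In nerve cells 3 these markers summed to 3233, 3798 and 666 CPM in libraries 1, 2 and 4, and library 4 was low both in them and in C4b. In tendon fibroblasts 2 the markers summed to 55992 CPM or more at a like level of C4b. Their part in the C4b value of nerve cells 3 was not tested. No test was run on nerve cells 3.

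C3 is the point where all pathways meet, and its transcripts were held mostly by 1 fibroblast population, with 93.0% of 1198 UMIs in tendon fibroblasts 2. Its level there was 984, 276 and 878 CPM in libraries 1, 3 and 4, with 44.6, 45.8 and 7.55 CPM in tendon fibroblasts 1. Tendon fibroblasts 3 had 16.9 CPM in library 1, and bursal fibroblasts had 1 UMI in 40 cells. Immune cells had 6 UMIs, all in library 1, at 11.1 CPM. In the libraries that list the gene, tendon fibroblasts together held 99.4% ± 1.06 of C3 UMIs (n = 3), and tendon fibroblasts 2 alone 93.3% ± 5.42.

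Within tendon fibroblasts 2, C3 was uneven between cells. It was found in 77 of 156 cells (49.4%), with up to 77 UMIs in a cell, and 12 cells held at least as many of the 1114 UMIs as the others together. C4b was found in 101 of 156 cells, with 18 cells holding at least as many of the 1408 UMIs as the others together. Both were found in 69 cells, C3 alone in 8, C4b alone in 32 and neither in 47, and 54 cells had a UMI of each of C3, C4b, Serping1 and C1ra. Cells of a population share their library and are not replicates.

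Serping1, the inhibitor of C1r and C1s, was found in fibroblasts, pericytes, endothelial cells and nerve cells 3, and nearly not at all in immune cells. Bursal fibroblasts had 2717, 1883 and 1879.9 CPM in libraries 1, 3 and 4, tendon fibroblasts 2 had 2291, 1707 and 1635 CPM in the same libraries, and tendon fibroblasts 3 had 1890.1 CPM in library 1. Tendon fibroblasts 1 had 267, 31.3, 359 and 79.3 CPM in libraries 1 to 4, and pericytes 323, 306, 323 and 239 CPM. The first 3 populations overlapped in level and stood above all others, while tendon fibroblasts 1 overlapped with pericytes.

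Among endothelial cells, Serping1 was 50.5 to 81.1 CPM in endothelial cells 2 and 10.6 to 41.5 CPM in endothelial cells 1, with no overlap over 4 libraries. Nerve cells 3 had 416, 495 and 40.4 CPM in libraries 1, 2 and 4, again lowest in library 4, against 0 UMIs in nerve cells 1. Immune cells had 1 Serping1 UMI in 92 cells. After thinning, 97.3% of bursal fibroblasts (interval 85.8 to 99.9), 97.8% of tendon fibroblasts 3 (88.5 to 99.9) and 87.8% of tendon fibroblasts 2 (81.5 to 92.6) had a Serping1 UMI, against 38.5% of tendon fibroblasts 1 (31.0 to 46.5), 57.7% of pericytes (47.6 to 67.3), 0 of 87 immune cells and 0 of 106 red blood cells.

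**Figure D2:**
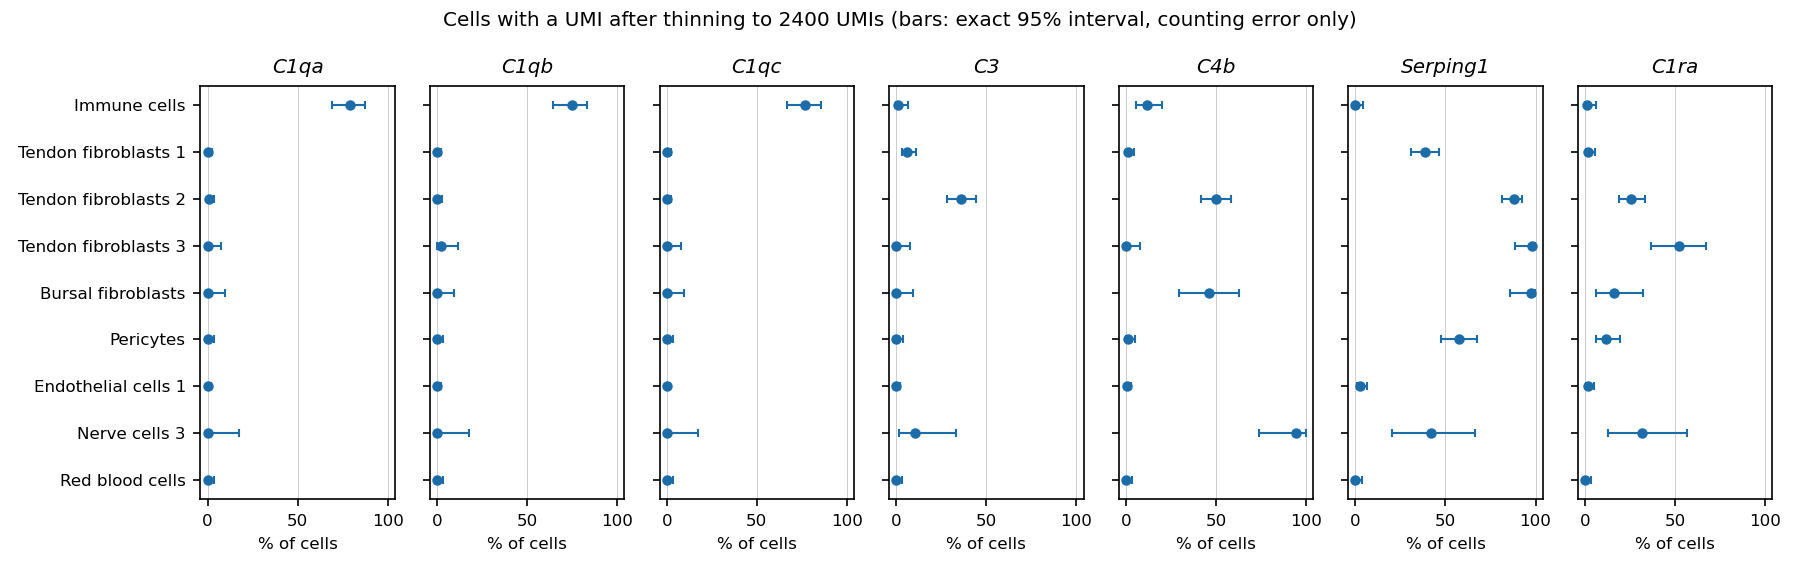
Share of cells (horizontal axis, percent) with a UMI of each gene in 9 populations after cells were thinned to 2400 UMIs (shallower cells left out), libraries pooled; points are shares and bars exact 95% intervals, which cover counting error only. The C1q chains are found in 74.7% to 79.3% of immune cells and in at most 2.17% of cells of the other populations shown, and Serping1 in 87.8% or more of tendon fibroblasts 2, tendon fibroblasts 3 and bursal fibroblasts.

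How the populations divide the transcripts depends on cell numbers as well as on levels. All fibroblasts, bursal ones included, held 71.3% ± 47.6 of C4b UMIs, 76.5% ± 34.0 of Serping1 UMIs and 65.0% ± 38.3 of C1ra UMIs (SD, n = 4 libraries). The spread came with library 2, which had 14 tendon and 0 bursal fibroblasts. There nerve cells held 81.5% of the 54 C4b UMIs and 34.5% of the 29 C1ra UMIs, and pericytes held 51.2% of the 205 Serping1 UMIs. Without library 2, tendon fibroblasts alone held a mean of 83.6% of C4b, 63.4% of Serping1 and 74.6% of C1ra UMIs, against 62.7%, 54.0% and 58.5% with it.

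**Figure D3:**
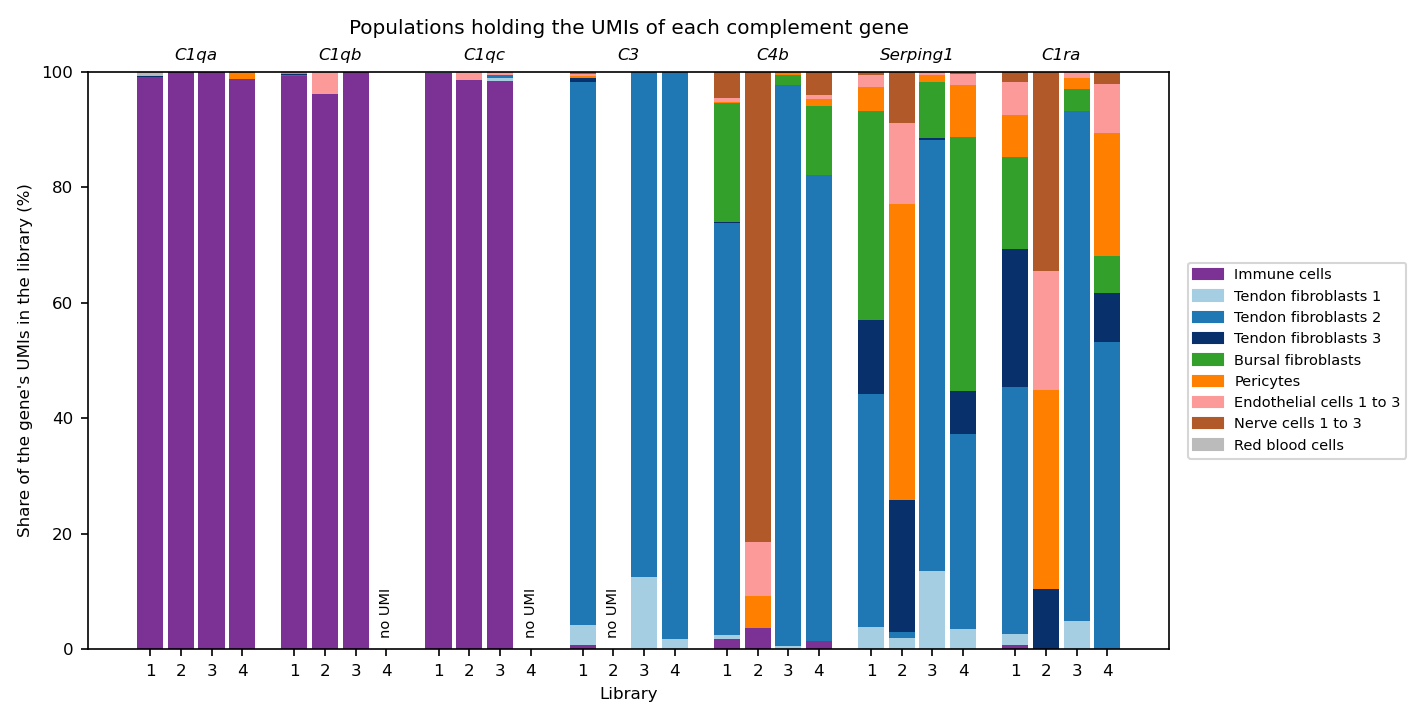
Share of the UMIs of each gene (vertical axis, percent) held by each population in libraries 1 to 4 (horizontal axis); a bar sums to 100 percent, and "no UMI" marks a gene listed at 0 in the whole library. The C1q bars are filled by immune cells and the C3 bars by tendon fibroblasts, while C4b, Serping1 and C1ra shift to nerve cells and pericytes in library 2.

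The first test set immune cells against tendon fibroblasts 1 to 3 summed, in the 3 libraries with 5 or more cells of each, and asked how the genes other than C1q differ. Of the 7 genes, 5 passed the filter on low counts, and all 5 passed at an adjusted p under 0.05 (quasi-likelihood test of edgeR), where 29.1% of the 5204 genes tested did. Among genes tested, 12.7% were higher in immune cells, as the 3 C1q genes were, and 16.4% were lower, as C4b and Serping1 were. C1qa, C1qb and C1qc passed the filter only through immune cells, with 2, 4 and 3 UMIs in tendon fibroblasts. Serping1 passed only through tendon fibroblasts, with 1 UMI in immune cells. The direction of these genes was thus set by passing, and their calls are a description. Serping1 was 813-fold lower in immune cells, with an exact interval of 146 to 32133 from 1 UMI there, in 3 of 3 libraries without overlap (954 ± 596 CPM in tendon fibroblasts, SD, n = 3; adjusted p = 6.2e-07, edgeR). C4b was lower in immune cells by a fitted log2 difference of -3.94 ± 0.80 (SE; adjusted p = 0.00245, edgeR), but in 2 of 3 libraries only, since the 14 tendon fibroblasts of library 2 had 0 C4b UMIs and its immune cells 46.4 CPM. DESeq2 did not call C4b (log2 difference -3.76, adjusted p = 0.472). Pooled over libraries, C4b in immune cells (36.7 CPM) lay below tendon fibroblasts 2 (791 CPM) but above tendon fibroblasts 1 (5.67 CPM) and 3 (5.42 CPM). The lower level thus holds for the summed fibroblasts and not for each population.

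C3 and C1ra did not pass the filter in that comparison. C1ra stood at 119.6, 17.2 and 60.2 CPM in tendon fibroblasts of libraries 1 to 3 against 3.71, 0 and 0 CPM in immune cells, a ratio of 28.7 with an exact interval of 7.87 to 238. C3 stood at 469.7, 0 and 168 CPM in tendon fibroblasts against 11.1, 0 and 0 CPM in immune cells. With no filter, both were called lower in immune cells (adjusted p = 1.3e-11 for C1ra and 7.2e-19 for C3, edgeR). With only macrophage-marked immune cells, which left libraries 1 and 3, all 7 genes passed the filter and were called in these directions, with log2 differences of -4.22 for C4b, -6.75 for C3, -5.37 for C1ra and -9.98 for Serping1. In that setting the C1q genes passed only through immune cells and the other genes only through tendon fibroblasts. These directions were thus set by passing, and the repeat adds no test of them.

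The second test compared tendon fibroblasts 2 with tendon fibroblasts 1 in libraries 1, 3 and 4. All 4 genes that passed the filter were higher in tendon fibroblasts 2 (edgeR, adjusted p under 0.05), where 8.12% of the 7043 genes tested differed, 3.79% higher and 4.33% lower. The fitted log2 differences were 6.89 ± 0.42 for C4b (SE; adjusted p = 2.2e-05), 4.21 ± 0.43 for C1ra (3.8e-04), 3.89 ± 0.49 for C3 (0.00124) and 2.93 ± 0.33 for Serping1 (6.9e-04). Each gene was higher in 3 of 3 libraries with no overlap between the populations. C3 led the annotation of tendon fibroblasts 2, so its difference is a description. C4b and C1ra passed the filter only through tendon fibroblasts 2, with 10 and 11 UMIs in tendon fibroblasts 1, so their direction was set by passing. When clusters were formed on a portion of each cell's UMIs and tested on the rest, all 4 were again called, with log2 differences of 6.84, 4.09, 3.89 and 3.22 for C4b, C1ra, C3 and Serping1. These clusters took their names from the authors' populations, which were formed on all UMIs. They shared 145 of 156 cells with tendon fibroblasts 2 and 162 of 173 with tendon fibroblasts 1, so the repeat is not independent of the annotation. The C1q genes had 0 to 2 UMIs in either population and could not be tested.

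Bursal fibroblasts, named for the bursa, the fluid-filled sac beside the tendon, differed from both. Against tendon fibroblasts 1, the 2 genes that passed the filter were higher in bursal fibroblasts in 3 of 3 libraries without overlap, C4b with a log2 difference of 5.06 ± 0.49 (adjusted p = 5.9e-06, edgeR) and Serping1 with 3.21 ± 0.41 (6.9e-05), where 15.0% of 5186 genes differed, 6.00% higher and 8.99% lower. C4b passed the filter only through bursal fibroblasts, with 10 UMIs in tendon fibroblasts 1, so its direction was set by passing. With no filter, C1ra was also higher (log2 difference 2.78, adjusted p = 1.1e-04) and C3 lower (-4.82, adjusted p = 7.0e-06, edgeR).

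Against tendon fibroblasts 2, 2 of 4 genes tested differed, where 6.45% of 4960 genes did, 2.30% higher and 4.15% lower. C3 was 525-fold lower in bursal fibroblasts, with an exact interval of 94.1 to 20762 from 1 UMI (adjusted p = 1.1e-04, edgeR). Since C3 led the annotation of tendon fibroblasts 2 and passed the filter only through them, this difference too is a description. C4b was lower by a log2 difference of -2.24 ± 0.45 (adjusted p = 0.0121), a call lost without the library block (adjusted p = 0.147), with thinned cells (0.194) and without library 4 (0.152). C1ra (-1.52 ± 0.43, adjusted p = 0.0691) did not pass, although it was lower in 3 of 3 libraries without overlap. Serping1 had a log2 difference of 0.19 ± 0.35 (adjusted p = 0.854), with overlapping levels. A p that misses the threshold does not show that the 2 populations have the same level of Serping1.

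Pericytes, the mural cells of small vessels, had less of each tested gene than tendon fibroblasts together, in 3 of 4 libraries each and with overlap. Of 3 genes tested all were called, where 32.5% of 5540 genes were, 15.8% higher and 16.6% lower: C4b with a log2 difference of -5.26 ± 0.74 (adjusted p = 1.9e-04, edgeR), Serping1 with -1.73 ± 0.33 (0.00167) and C1ra with -1.27 ± 0.35 (0.0150). The C1ra call was lost without library 1 (-0.80, adjusted p = 0.239) and with DESeq2 (-1.15, 0.0778). Library 2 was the exception in direction for each. Of its 14 tendon fibroblasts, 2 were tendon fibroblasts 2 (14.3%), against 28.1% to 48.1% in the other libraries. Whether this bears on the direction was not tested. In endothelial cells 1, Serping1 alone passed the filter and was lower in 4 of 4 libraries (log2 difference -5.76 ± 0.27, adjusted p = 3.6e-09, edgeR), where 44.7% of 6409 genes differed, 22.1% higher and 22.6% lower. Serping1 passed there only through tendon fibroblasts, at 304 to 1476 CPM against 10.6 to 41.5 CPM, so its direction was set by passing.

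The rest of the complement system was read from a list of 50 further genes, of which 34 were in the count table. Between immune cells and tendon fibroblasts, 12 were tested, 5 were higher and 4 lower in immune cells, where 12.7% and 16.4% of all genes tested were, with a median log2 difference of -0.24 against -0.04 over all genes tested. The 5 higher in immune cells were all receptors, of 7 receptor genes tested. With 0 to 5 UMIs in tendon fibroblasts, these 5 passed the filter only through immune cells. Their direction was thus set by passing, and their calls are a description. C3ar1, the receptor of the C3a fragment, stood at 563, 742 and 647 CPM in immune cells of libraries 1 to 3 and at 2 UMIs in tendon fibroblasts. Itgam and Itgb2, the chains of complement receptor 3, were at least 666-fold and 504-fold (interval 137 to 4188) higher, and C5ar1, the receptor of C5a, at least 349.8-fold, from 46.4 to 726 CPM. The lower bounds use a floor of 3 UMIs over the fibroblasts, which had 0. Cd93 was the fifth.

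The 4 lower in immune cells were C1s1, Colec12, Clu and Cd55, which the list counts as pathway components or regulators. Cd55 had a fitted log2 difference of -3.42 ± 0.79 (adjusted p = 0.00577, edgeR) but overlapped: it was 13, 139 and 0 CPM in immune cells of libraries 1 to 3 against 264, 91.8 and 75.1 CPM in tendon fibroblasts, and so higher in immune cells in library 2. C1s1, at 188, 97.5 and 51.5 CPM in tendon fibroblasts and 0 UMIs in immune cells, was at least 26.5-fold lower. It passed the filter only through tendon fibroblasts, so its direction was set by passing. Clu, a secreted chaperone that also blocks the terminal complex, was lower by -7.50 ± 0.52 on the log2 scale (adjusted p = 1.2e-06), and Colec12, a membrane collectin, by -1.82 ± 0.45 (0.00844).

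Between tendon fibroblasts 2 and 1, 9 of these genes were tested, 3 were higher in tendon fibroblasts 2 and 1 lower, where 3.79% and 4.33% of all genes tested were, with a median log2 difference of 0.17 against -0.01 over all genes. C1s1 was 83.4-fold higher in tendon fibroblasts 2 (exact interval 28.2 to 407, from 3 UMIs in tendon fibroblasts 1; adjusted p = 1.4e-04, edgeR). Cfb, the alternative-pathway counterpart of C2, and C7, a part of the terminal complex, were the other 2, at 58.9, 41.8 and 96.7 CPM and at 66.6, 29.1 and 72.5 CPM in libraries 1, 3 and 4, against 1 and 0 UMIs. C1s1, Cfb and C7 passed the filter only through tendon fibroblasts 2. Their direction was thus set by passing, and their calls are a description. Clu was lower in 3 of 3 libraries, at 67.9, 601 and 16.1 CPM in tendon fibroblasts 2 against 14492 ± 685 CPM in tendon fibroblasts 1 (log2 difference -7.00 ± 0.82, adjusted p = 8.1e-04).

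Bursal fibroblasts differed from both tendon populations in a regulator of C3 cleavage. Cd55, which speeds the decay of C3 convertases on the cell's own surface, stood at 883, 897 and 1374 CPM in bursal fibroblasts of libraries 1, 3 and 4, above tendon fibroblasts 1 (log2 difference 3.18 ± 0.32, adjusted p = 9.2e-06, edgeR) and tendon fibroblasts 2 (2.16 ± 0.50, adjusted p = 0.0257). It was higher in 3 of 3 libraries against each, without overlap. The 2 comparisons share the bursal cells. Against tendon fibroblasts 1, 2 of 6 tested genes of the list differed, where 15.0% of all genes tested did, and against tendon fibroblasts 2, 3 of 9, where 6.45% did. Cfb and C7 were 2 of these 3, with 1 UMI each in bursal fibroblasts. They passed the filter only through tendon fibroblasts 2, so their lower direction was set by passing. The other gene that differed from tendon fibroblasts 1 was Clu, at 32.2 ± 15.4 CPM in bursal fibroblasts (SD, n = 3; log2 difference -9.05 ± 0.45, adjusted p = 4.3e-08, edgeR).

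In pericytes, 9 of 10 tested genes of the list differed from tendon fibroblasts, 3 of them higher, where 32.5% of all genes tested differed. In endothelial cells 1 also 9 of 10 differed, with 3 higher, where 44.7% of all genes did. Colec12, Clu and Cd55 were lower in both populations in 4 of 4 libraries without overlap, with log2 differences of -4.36, -6.42 and -5.96 in pericytes and -5.35, -5.55 and -4.16 in endothelial cells 1. C1s1 was lower in endothelial cells 1 in 4 of 4 libraries (-2.97 ± 0.41, adjusted p = 5.0e-05, edgeR). Smaller differences with overlapping levels were found for Cr1l, a membrane regulator of C3 convertase, at 80.7 ± 19.9 CPM in pericytes against 117 ± 9.52 CPM in tendon fibroblasts (-0.95 ± 0.23, adjusted p = 0.00838), and for Calr, a chaperone that can bind C1q. Calr stood at 289 ± 65.4 CPM in pericytes and 296 ± 20.9 CPM in endothelial cells 1 against 398 ± 69.6 CPM in tendon fibroblasts (-0.82 ± 0.20, adjusted p = 0.00823, and -0.88 ± 0.17, adjusted p = 7.4e-04). In pericytes Cd93 was higher, at 270.4 ± 58.5 CPM (6.96 ± 0.38, adjusted p = 2.3e-07, edgeR). Endothelial markers summed to 365 to 1654 CPM in pericytes, 5337 to 6308 CPM in endothelial cells 1 and 7.81 to 23.9 CPM in tendon fibroblasts 1. The part of endothelial transcripts in the Cd93 value of pericytes was not tested. Cd93, a receptor-like protein of endothelium once described as a C1q receptor, stood at 988, 1147, 860.3 and 1096 CPM in endothelial cells 1 of libraries 1 to 4 and at 6 UMIs in tendon fibroblasts (log2 difference 8.71 ± 0.32, adjusted p = 7.6e-10, edgeR). Cd59a, which blocks the terminal complex at the membrane, was 106, 131, 206 and 80.6 CPM there against 15.9 ± 9.49 CPM in tendon fibroblasts (3.04 ± 0.34, adjusted p = 6.9e-06). In these 2 comparisons Cd93 passed the filter only through pericytes or endothelial cells 1, and Colec12 and Cd55 only through tendon fibroblasts. Against endothelial cells 1, C1s1 also passed only through tendon fibroblasts, and Cd59a only through endothelial cells 1. The direction of these genes was thus set by passing. Pooled over libraries, Cd59a was higher still in nerve cells 1 to 3, at 330.0, 327 and 418 CPM. C2, which C1s cuts beside C4, was 455 CPM in tendon fibroblasts 3 and at most 26.0 CPM in any other population, and tendon fibroblasts 3 rest on library 1 for 45 of 51 cells.

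**Figure D4:**
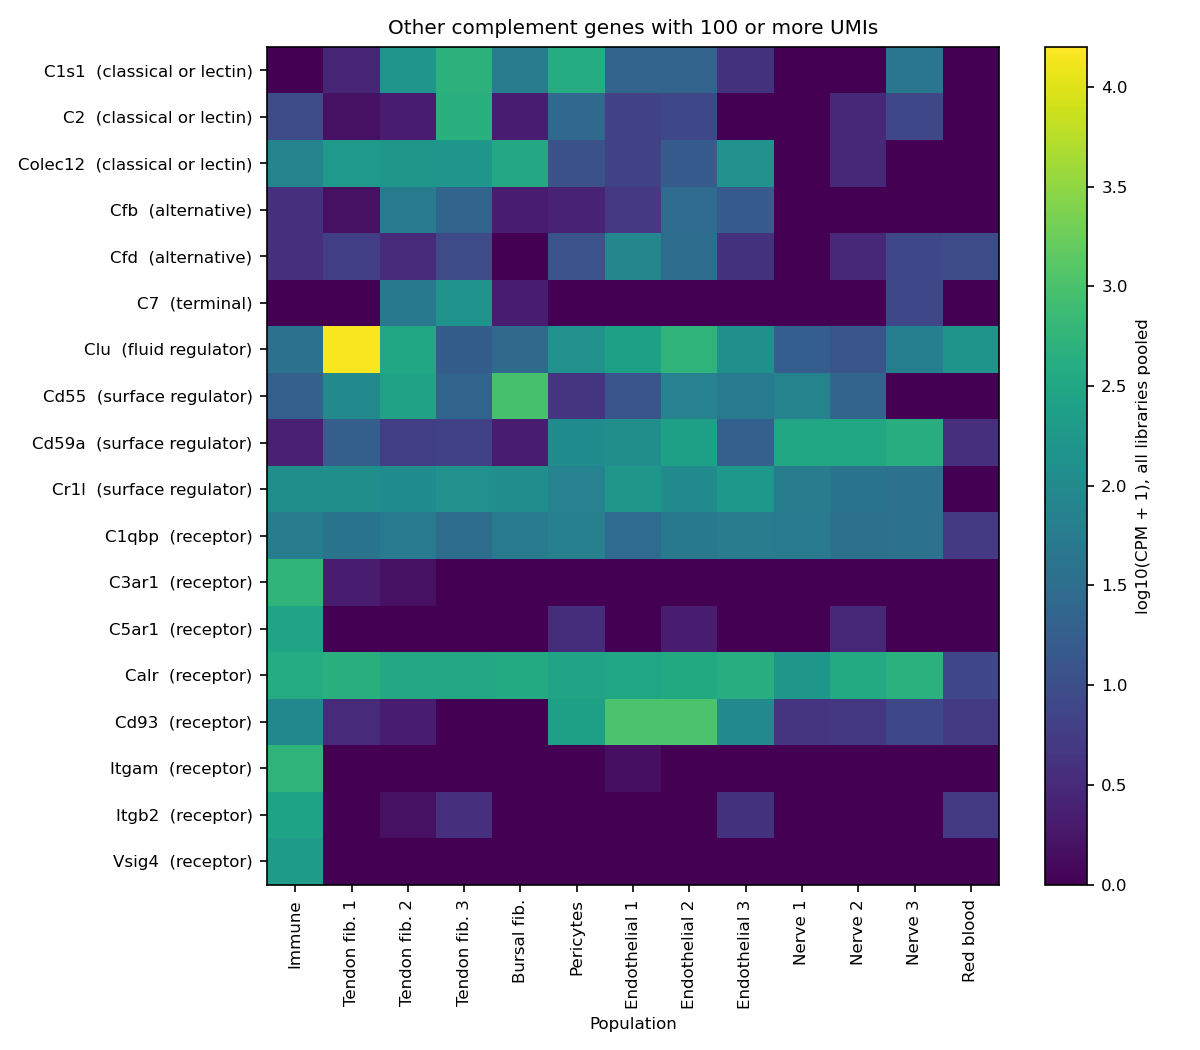
Level of other complement genes with 100 or more UMIs (rows, with their role) in 13 populations (columns), as colour on a scale of log10(CPM + 1) with all libraries pooled. C3ar1, C5ar1, Itgam, Itgb2 and Vsig4 are bright in immune cells, and C1s1, C2 and C7 in tendon fibroblasts 3.

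Across the 13 populations, with all libraries pooled, the 7 genes fell into patterns that a correlation of log2(CPM + 1) describes. The populations share libraries and the genes that define them, so no test is given. The C1q chains had a Pearson r of 0.925 to 0.971 with each other. Serping1 and C1ra had an r of 0.924, and C3 and C4b 0.645, while C1qa and Serping1 had -0.382. Among 7180 genes with 50 or more CPM in a population, the 3 most like C1qa were Itgb2, Cd52 and Ptprc (r = 0.972 to 0.987), those most like C1qb were Arhgap30, Tyrobp and Gpr34 (0.979 to 0.982), and those most like C1qc were Dok2, Trem2 and Tnfaip8l2 (0.994 to 0.998). C1ra was most like Serping1, Islr and C1s1 (0.909 to 0.924), so that 2 of its 3 nearest genes were of the same pathway. Serping1 was most like Il17d, Plac9b and Csf1 (0.935 to 0.954), C3 like Cldn10, Fmod and Smim3 (0.857 to 0.926), and C4b like Spon1, Scg3 and Sv2c (0.827 to 0.859).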

How the data were processed

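Single-cell RNA of mouse Achilles tendon was counted in 4 libraries of 1 group. The authors deposited raw UMI counts per gene and cell, which were used for every result, normalized values, which were not used, and cell annotations (library and population). The submitters' processing notes name Cell Ranger, Seurat 2.3.4, R 3.5.2 and the build mm10; cell and gene filters are not given in the sources used here. Of 15750 entries, 4 with a repeated gene name (0.0186% of UMIs) were left out. No cell was removed and no doublet caller was run, but the tests other than those of bursal fibroblasts were repeated without the 61 cells above the 95th percentile of UMIs.

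Counts were summed per library and population (5 or more cells, 3 or more libraries) and tested in R 4.3.3 with the edgeR 4.0.16 quasi-likelihood test (limma 3.58.1), with TMM, filterByExpr, the library as a block, and Benjamini-Hochberg adjustment over all genes tested at 0.05. The library is a block because both sums come from cells of the same library. A gene that passed the filter through only 1 population of a comparison could be called only as higher there. Other settings were DESeq2 1.42.0, RLE normalization, no filter, 3 or 10 cells per sum, no block, cells thinned to 2400 UMIs, 1 fit over all populations, clusters formed on a portion of the UMIs (scanpy 1.11.5), and each library left out. The scripts were tested on simulated data. Shares have exact Clopper-Pearson 95% intervals; a fold against 0 UMIs uses a floor of 3 counts over the population, and with 1 to 3 UMIs a ratio with its exact interval. Intervals and floors cover counting error only.

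The authors formed the populations by clustering these counts, and the tests take them as given. The 7 genes, the gene lists and the tests were chosen with earlier results of these data known. The text names the 7 genes throughout, other complement genes with an adjusted p under 0.05, at least 100 CPM on average on the higher side and no library in the other direction, and the 3 genes most like each member (pseudocount 1). C2, C7, Cfb, Cd93 in immune cells, Cd55 in immune cells and the pooled Cd59a and Vsig4 levels fall outside that rule and were named after their values were seen. Gene positions and transcript ends are from GENCODE M21. The other tools were python 3.11.15, scipy 1.17.1, pandas 2.3.3 and numpy 2.4.6.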

Additional observations from a re-analysis of the deposited data

Results flagged for a closer look

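Serping1 in endothelial cells 1 stood at 41.5 CPM in library 1, far from 10.6 to 12.9 CPM in the other 3 libraries. Of 18 groups of 4 libraries examined, this was the 1 with a library apart, and chance marks about 1 group in 20. The value rested on 42 UMIs in 11 of 94 cells, 1 of which held 13 UMIs, and was 29.5 CPM without that cell. Fibroblast markers summed to 301 CPM in these cells of library 1, within the 166 to 612 CPM of the other libraries.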

How the results depend on the processing

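The 4 genes higher in tendon fibroblasts 2 than 1 were called in all settings run. Of 241 member fold changes recomputed, 230 kept direction and call. Between immune cells and tendon fibroblasts, sums of 3 or more cells brought in library 4, where C1qb and C1qc are listed at 0, and left 3 genes tested and called, against 5. The other settings called 4 to 7 there. For bursal against tendon fibroblasts 1 (2 called), 4 were called with no filter or in 1 fit over all populations, 1 with thinned cells or with clusters made on part of the UMIs, and 2 to 4 leaving out a library (4 without library 4). For bursal against tendon fibroblasts 2 (2), 1 was called with no replicate block or with thinned cells, and 1 to 3 leaving out a library (1 without library 4, 3 without library 3). For pericytes (3), 1 was called with thinned cells and 1 to 4 leaving out a library (1 without library 1, 2 without library 3). For endothelial cells 1 (1), 4 were called with no filter or in 1 fit, and 1 to 4 leaving out a library (4 without library 2, 2 without library 4). The number of members tested changed in most of these settings. No other call on a member changed without the replicate block.

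Serping1 in bursal against tendon fibroblasts 2 (0.19) was -0.13 with clusters made on part of the UMIs (adjusted p = 0.927, edgeR) and ranged from -0.00 (without library 1, 0.996) to 0.33 leaving out a library. C1ra there was called with no filter (-1.57, adjusted p = 0.00204), in 1 fit (-1.53, 0.0144) and without library 3 (-1.48, 0.0153). The cause was not tested. The share of C1qc UMIs in immune cells was 100% with thinned cells and 99.8% with each population counted once, and that of C3 in tendon fibroblasts 94.8%. Without thinning, the mean share of tendon fibroblasts 2 with a UMI was 55.6% for C3, 66.2% for C4b and 54.7% for C1ra, against 40.8%, 51.2% and 29.9%. Bursal comparisons could not be run with 10 cells per sum or without cells of very high UMIs.

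Counts over all genes moved more. Immune cells against tendon fibroblasts had 1516 calls, 599 with thinned cells, 925 with clusters made on part of the UMIs, 2602 in 1 fit, 2856 with no filter, 689 without library 1, 2860 without library 2, 2844 with macrophage-marked cells and 2294 against tendon fibroblasts 2 alone. Tendon fibroblasts 2 against 1 had 572, then 310 thinned, 362 without library 1, 371 with DESeq2 and 1073 with no filter. Bursal against tendon fibroblasts 1 had 777, then 282 thinned, 380 without library 1, 472 with such clusters, 503 with DESeq2 and 1216 with no filter. Bursal against tendon fibroblasts 2 had 320, then 137 thinned, 149 without library 1, 705 in 1 fit and 727 with no filter. Pericytes had 1800, then 461 thinned and 1125 with such clusters, and endothelial cells 1 had 2866, then 804 and 1817.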
